A study of Mus musculus with 6 samples.

Results

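The genes described here are 10 hypoxia and HIF target genes that lie outside glycolysis: Hif1a, Egln1, Egln3, Vegfa, Bnip3, Ndrg1, P4ha1, P4ha2, Kdm3a and Ankrd37. They were picked by name from the 26128 genes of the deposited table with earlier results of the same comparison known, so the differences between the groups below are a description of these genes and were not tested. All 10 passed the filter on low counts, which kept 14671 genes. RNA was sequenced from DNT cells, CD3+ T cells without CD4, CD8 and NK1.1 on the surface that can suppress other immune cells, in 3 control libraries and in 3 libraries of cells given IL-33, an alarmin cytokine of the IL-1 family.

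Both groups came from C57BL/6 mice, per the labels from the spleen of adults. The study's methods instead name spleens and lymph nodes as the source, and list male C57BL/6 mice. They describe the cells as DNT cells converted in culture from CD4+CD25- T cells with allogeneic dendritic cells and IL-2 and then sorted. The cells thus model in vitro converted DNT cells and not those found in a mouse. Control and IL-33 cells both spent 48 h with beads carrying anti-CD3 and anti-CD28, which stimulate the T cell receptor, and only the IL-33 group received IL-33, at 50 ng/ml. The sources do not say whether the replicates were separate mice, conversions or wells, so the errors given measure the spread between these libraries, which may be technical.

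Cells sense a shortage of oxygen through the hypoxia-inducible factors. With oxygen present, the prolyl hydroxylases made by Egln1, Egln2 and Egln3 mark the alpha subunits HIF-1α and HIF-2α for destruction through the von Hippel-Lindau protein, and without it the alpha subunits pair with ARNT and bind a short core motif near their target genes. In activated T cells HIF-1α protein is also known to build up with oxygen present, and the pathway is best known there for its control of glycolysis.

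Totals ran from 20256342 to 22336050 counts per library. The level that a count of 0 allows, 3 counts, corresponds to 0.134 to 0.148 CPM (counts per 1000000 counts of a library, here of the full total). Of the defining T cell markers, all 10 were found, with a summed level of 2472 to 2653 CPM in control and 2570 to 2686 CPM in IL-33 libraries. Cd4 was low but above 3 counts in every library, with 16 to 22 counts in control and 5 to 11 with IL-33. Its level was 0.934 CPM in control and 0.373 CPM with IL-33 (log2 fold change -1.31, adjusted p = 0.023, edgeR). The sort was on surface protein, and RNA of Cd8a was present in every library, at 545 CPM in control and 400.2 CPM with IL-33, while Cd8b1 went the other way, from 9.68 to 16.3 CPM, and Klrb1c, which encodes NK1.1, read 33.5 and 25.6 CPM. Of 13 dendritic cell and macrophage markers 12 were in the table and 7 passed the filter, and their sum ran from 129 to 134 CPM in control and from 111 to 120.5 CPM with IL-33, with Flt3 at 0 to 2 counts and Lyz2 at 0 to 8 counts in any library. Itgax made the sum lower, at 54.6 CPM in control and 26.0 CPM with IL-33. Cd74 also fell, from 5.66 to 3.78 CPM (log2 fold change -0.58). The other 5 of the 7 had a log2 fold change above 0. Among them were H2-Ab1 (24.8 and 30.3 CPM), Cd68 (29.4 and 33.6 CPM) and Itgam (2.61 and 4.83 CPM). Mast cell and basophil markers (6 of 7 in the table, Ms4a2 and Tpsb2 at 0 in the IL-33 libraries) summed to 38.1 to 41.0 CPM in control and 26.6 to 31.5 CPM with IL-33. The part of these shifts in the results below was not tested, and in bulk RNA fewer cells of a type and less RNA per cell cannot be told apart.

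The RefSeq promoter table held 9 of the 10 genes, all but Ndrg1, each as a window of 250 bases before and 50 bases after the most upstream RefSeq start on GRCm38.p6. ACGTG and GCGTG, the core letters of HIF binding sites, were looked for on both strands, and a palindromic CACGTG counts as a pair of overlapping matches. At least 1 match lay in 8 of 9 windows, against 43.8% of the windows of all 27025 genes and 62.8% of those of 10068 genes tested. Since GC-rich windows hold such letters more often, the share was also taken over the 6642 tested genes whose windows had at least as many CG pairs as the poorest of the 9, where it was 73.8%. ACGTG alone was in 7 of 9 windows, against 19.6%, 25.9% and 29.5% in these 3 backgrounds, and at least 2 matches were in 6 of 9, against 20.8%, 34.3% and 43.6%. A match describes the letters and does not show a bound site, and no test was made over these 9 windows.

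The following stretches are the 250 bases before the start on the gene's own strand, 5′ to 3′, with the matches in capitals; they are shown for Bnip3, which has the most matches, for the paired subunit genes P4ha1 and P4ha2, for Hif1a, which has matches but differed least between the groups, and for Vegfa, which has none but differed most. Bnip3 (chr7:138909507-138909756, minus strand) holds 5 matches, among them a CACGTG. This hexamer was found in 7.24% of all promoter windows and in 10.1% of those of genes tested. Among tested genes with at least as many CG pairs as the poorest member window it was found in 11.9%. P4ha1 (chr10:59323046-59323295, plus strand) holds 3 matches. P4ha2 (chr11:54100674-54100923, plus strand, inside the GENCODE gene but in none of its exons) shows 3 of its 4, the last lying 11 bases after the start. Hif1a (chr12:73907617-73907866, plus strand, inside the longer GENCODE gene model) holds 3, of which 2 form a CACGTG. Vegfa (chr17:46032378-46032627, minus strand) holds none, which says only that these letters are not in this window.
Bnip3: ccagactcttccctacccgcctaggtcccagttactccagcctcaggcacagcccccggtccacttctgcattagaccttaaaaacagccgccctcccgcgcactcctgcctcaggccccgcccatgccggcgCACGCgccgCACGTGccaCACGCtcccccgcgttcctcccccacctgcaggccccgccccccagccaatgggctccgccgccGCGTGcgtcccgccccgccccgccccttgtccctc
P4ha1: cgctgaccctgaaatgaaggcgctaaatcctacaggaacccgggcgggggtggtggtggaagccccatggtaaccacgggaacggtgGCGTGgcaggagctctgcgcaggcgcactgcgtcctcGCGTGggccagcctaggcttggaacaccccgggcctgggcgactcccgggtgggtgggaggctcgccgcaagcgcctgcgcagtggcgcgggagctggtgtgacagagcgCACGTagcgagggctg
P4ha2: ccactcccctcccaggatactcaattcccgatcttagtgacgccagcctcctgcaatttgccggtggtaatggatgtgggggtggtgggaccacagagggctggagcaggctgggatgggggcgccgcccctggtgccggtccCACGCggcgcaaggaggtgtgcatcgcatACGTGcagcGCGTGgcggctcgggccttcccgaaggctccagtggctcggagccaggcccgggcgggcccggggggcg
Hif1a: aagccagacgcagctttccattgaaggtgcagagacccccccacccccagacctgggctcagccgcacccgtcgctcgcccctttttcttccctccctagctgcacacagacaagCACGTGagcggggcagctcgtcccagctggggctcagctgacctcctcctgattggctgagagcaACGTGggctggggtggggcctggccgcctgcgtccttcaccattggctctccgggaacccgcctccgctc
Vegfa: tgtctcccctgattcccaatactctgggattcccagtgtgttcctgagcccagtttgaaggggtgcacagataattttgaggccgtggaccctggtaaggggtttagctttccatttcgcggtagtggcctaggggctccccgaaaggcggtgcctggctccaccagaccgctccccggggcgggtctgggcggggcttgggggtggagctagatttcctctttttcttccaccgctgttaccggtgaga
Of the genes not printed, Ankrd37 had 4 matches, Egln1 2, Egln3 1 and Kdm3a 1, the last being GCGTG 27 bases before the start. The windows of the other HIF targets held ACGTG in 17 of 38 cases (44.7%) and those of the glycolytic HIF targets in 9 of 20 (45%), while the components of the pathway held it in 4 of 18 (22.2%).

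**Figure D1:**
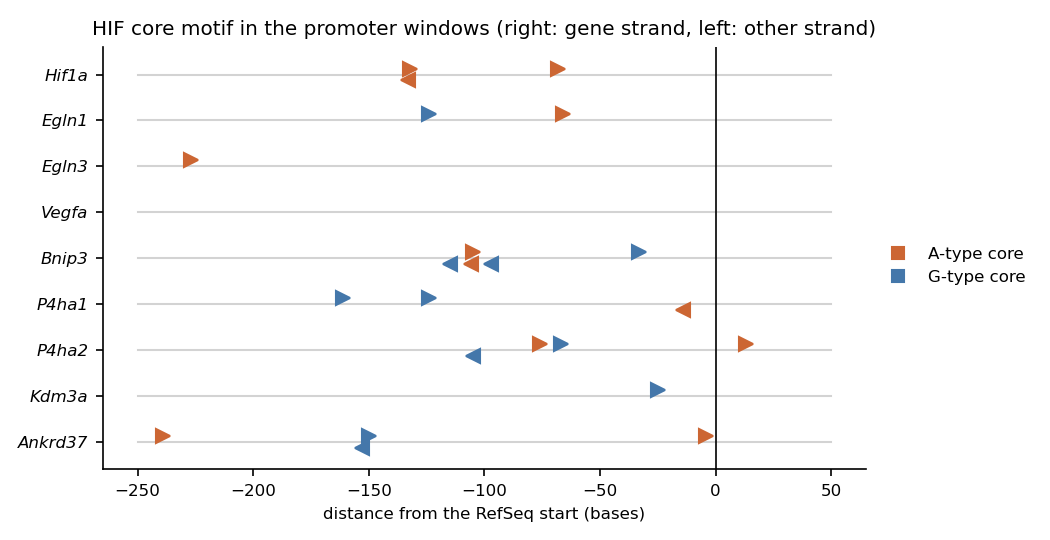
Positions of the HIF core motif in the promoter windows of 9 genes, by distance in bases from the RefSeq start (vertical line). Triangles pointing right are matches on the gene's strand and those pointing left on the other strand, in orange for ACGTG (A-type) and blue for GCGTG (G-type); 8 windows hold at least 1 match, with 5 in Bnip3 and none in Vegfa.

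Set side by side, all 10 genes were higher on average with IL-33, with log2 fold changes (IL-33 minus control, from the edgeR fit over all genes tested) from 0.06 for Hif1a to 0.95 for Vegfa and a median of 0.44. The median over all genes tested was -0.00063. For 9 of the 10 genes every IL-33 library lay above every control library, which was so for 19.4% of all genes tested, with another 19.5% apart in the lower direction and 38.9% in either. The exception was Hif1a itself. Past both thresholds of the study's methods, an adjusted p under 0.05 and a fold change of at least 1.5, lay Vegfa, P4ha2 and Ndrg1, that is 3 of 10, where 2.47% of all genes tested were past both in the upward direction. As the genes were chosen on this contrast, these counts only describe them and nothing is read from the shares.

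**Figure D2:**
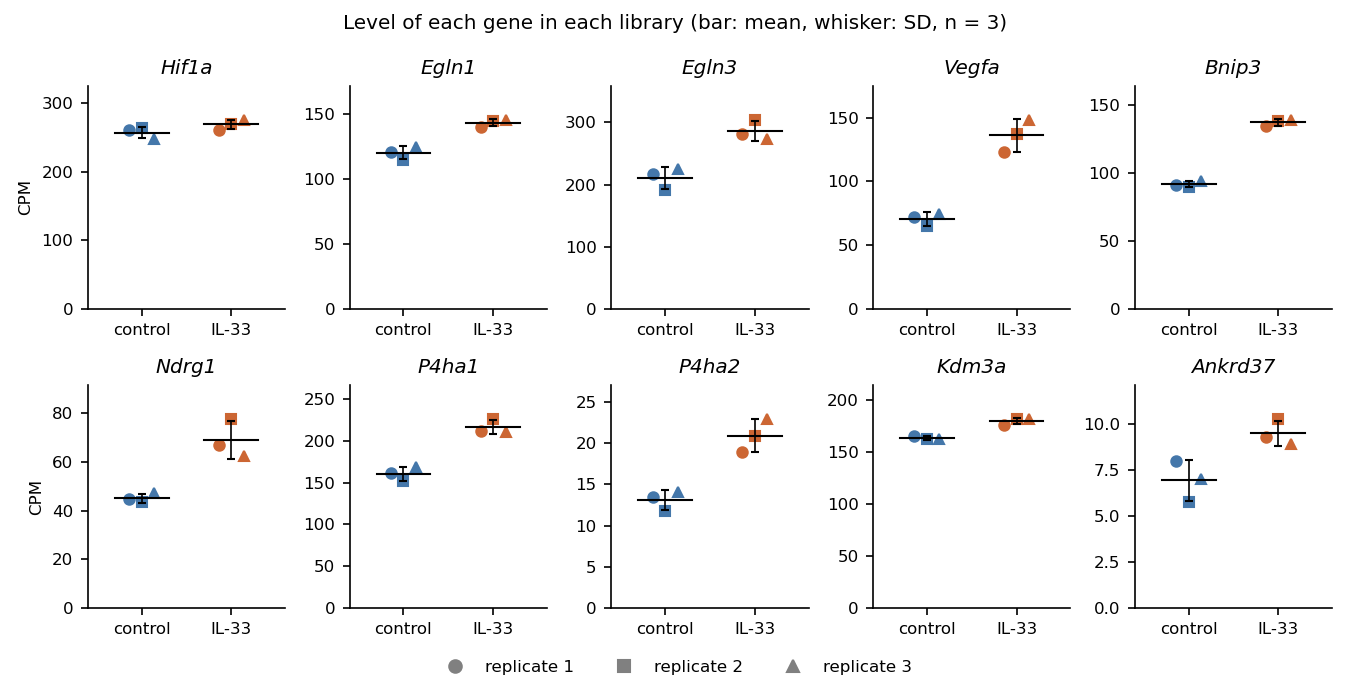
Level of each of the 10 genes in CPM (linear axis from 0) in the 3 control (blue) and 3 IL-33 (orange) libraries, with a bar for the mean and a whisker for the SD (n = 3). For all genes but Hif1a the IL-33 points lie above the control points, with the widest relative distance for Vegfa, at 70.4 CPM against 136 CPM.

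Hif1a, on chromosome 12 (73901375-73947530, plus strand, GENCODE M21 on GRCm38, as for all positions of genes), encodes the oxygen-regulated subunit HIF-1α. Its level was 260.4, 264 and 247 CPM in control replicates 1 to 3 and 261, 270.1 and 276 CPM in IL-33 replicates 1 to 3. The second control library lay above the first IL-33 library, so the groups overlapped. The means were 257 ± 8.67 and 269 ± 7.20 CPM (SD, n = 3), a log2 fold change of 0.06 (SE 0.032, 95% interval 0.00048 to 0.13). Regulation of HIF-1α is known to act largely on the protein, which these data do not measure. An antisense gene, Gm15283, overlaps 330 of the 5896 exon bases of Hif1a and held 1270 counts over the 6 libraries, against 33718 for Hif1a; Gm15283 rose, with a log2 fold change of 0.63 (SE 0.13, adjusted p = 3.1e-05, edgeR), and was named after its values were seen. Whether reads were counted by strand is not given in the sources used here.

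Egln1 (chromosome 8, 124908587-124949324, minus strand) and Egln3 (chromosome 12, 54178981-54203860, minus strand) encode PHD2 and PHD3, the hydroxylases that tag HIF-1α, and are themselves HIF targets. Egln1 stood at 121, 115 and 124 CPM in control and at 139.9, 145 and 145 CPM with IL-33. Each IL-33 library was above each control library, by at least 15.5 CPM. The means of 120.1 ± 4.86 and 143 ± 2.95 CPM gave a log2 fold change of 0.25 (SE 0.039, 95% interval 0.18 to 0.33). Egln3 read 217, 191 and 225 CPM in control and 281, 304 and 273 CPM with IL-33. These groups too stood apart, with the lowest library among the controls in replicate 2 and the highest of all in IL-33 replicate 2. From means of 211 ± 18.1 and 286 ± 16.3 CPM the log2 fold change was 0.44 (SE 0.075, 95% interval 0.25 to 0.63). Egln2, the remaining member of this enzyme family and not a classical HIF target, had 49.6 CPM in control and 50.3 CPM with IL-33, a log2 fold change of 0.02 (adjusted p = 0.83, edgeR), with overlapping groups.

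Vegfa (chromosome 17, 46016993-46032369, minus strand) encodes vascular endothelial growth factor A, a secreted ligand that drives vessel growth. It measured 71.8, 64.6 and 74.6 CPM in control and 123, 137 and 148 CPM with IL-33. The lowest IL-33 library exceeded the highest control by 48.1 CPM. Means of 70.4 ± 5.18 and 136 ± 12.8 CPM put the log2 fold change at 0.95 (SE 0.077, 95% interval 0.77 to 1.13), or 1.93-fold (1.71 to 2.19). That interval lay above those of 8 of the other genes and overlapped only that of P4ha2. Among its receptors, Nrp1 was low and fell, from 4.02 ± 0.382 to 2.27 ± 0.497 CPM (log2 fold change -0.83, SE 0.21, adjusted p = 0.0011, edgeR). Kdr, at 0.916 CPM and 0.448 CPM, had a log2 fold change of -1.02 with an SE of 0.44 (adjusted p = 0.076) and was named after its values were seen. Vegfb, the relative that binds the receptor Flt1, was at 11.3 CPM and 12.5 CPM (log2 fold change 0.14, adjusted p = 0.41), also named after its values were seen.

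Bnip3 (chromosome 7, 138890836-138909519, minus strand) encodes a BH3-domain protein of the outer mitochondrial membrane that triggers mitophagy. The 3 control libraries held 91.1, 89.8 and 94.0 CPM and the 3 IL-33 libraries 134, 138 and 139 CPM. Within the groups only Kdm3a was more even, and the gap between the groups was 40.4 CPM. With means of 91.6 ± 2.19 and 137 ± 2.45 CPM, the log2 fold change of 0.58 (SE 0.040, 95% interval 0.50 to 0.66) was just under the threshold of a 1.5-fold difference, and Ndrg1, at 0.61, was the nearest on the other side. Its paralogue Bnip3l, also called NIX, rose from 169 ± 9.20 to 216 ± 3.79 CPM (log2 fold change 0.35, SE 0.036, adjusted p = 8.2e-15, edgeR). Per kilobase of exon, Bnip3 was at 40.5 CPM and Bnip3l at 43.9 CPM in control, and at 60.6 CPM and 56.1 CPM with IL-33.

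P4ha1 (chromosome 10, 59323296-59373304, plus strand) and P4ha2 (chromosome 11, 54100095-54131665, plus strand) encode alternative catalytic subunits of collagen prolyl 4-hydroxylase, which hydroxylates procollagen. P4ha1 had 161, 152 and 168 CPM in control and 212, 226 and 211 CPM with IL-33. The groups were separated by 42.7 CPM, and the log2 fold change was 0.43 (SE 0.036, 95% interval 0.36 to 0.50) from means of 161 ± 8.10 and 216 ± 8.43 CPM. P4ha2 was lower, with 13.4, 11.8 and 14.1 CPM in control and 18.9, 20.9 and 22.9 CPM with IL-33. Here too no libraries crossed, and the log2 fold change was 0.67 (SE 0.097, 95% interval 0.48 to 0.87) from means of 13.1 ± 1.16 and 20.9 ± 1.99 CPM. The intervals of both subunits overlapped. Per kilobase of exon, P4ha1 was at 39.0 CPM and P4ha2 at 2.10 CPM in control, and at 52.6 CPM and 3.35 CPM with IL-33. P4hb, the shared beta subunit and a protein disulfide isomerase in its own right, rose from 604 ± 17.8 to 692 ± 9.48 CPM (log2 fold change 0.20, adjusted p = 8.9e-10, edgeR; named after its values were seen).

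Kdm3a (chromosome 6, 71588972-71632990, minus strand) encodes a demethylase of histone H3 lysine 9. It had 166, 162 and 162 CPM in control and 176, 182 and 181 CPM with IL-33. The groups lay 10.2 CPM apart, although the log2 fold change of 0.14 (SE 0.036, 95% interval 0.066 to 0.21) was small. The means were 163 ± 2.02 and 180 ± 3.17 CPM. Its within-group SD on the log2 scale, 0.022, was the lowest of the 10 genes. Another histone demethylase known as a HIF target, Kdm5b, which acts on H3 lysine 4, rose from 92.2 ± 4.62 to 126 ± 4.38 CPM (log2 fold change 0.45, SE 0.041, adjusted p = 1.0e-16, edgeR). Kdm6b, a demethylase of H3 lysine 27, fell from 44.1 ± 0.546 to 35.7 ± 2.42 CPM (log2 fold change -0.31, SE 0.063, adjusted p = 4.4e-05), and was named after its values were seen.

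Ndrg1 (chromosome 15, 66929318-66969640, minus strand) encodes a cytoplasmic protein of the N-myc downstream regulated family that responds to stress, iron depletion and hypoxia. Its level was 44.6, 43.5 and 47.2 CPM in control and 67.1, 77.5 and 62.2 CPM with IL-33. The IL-33 libraries were spread more widely than the controls, with replicate 2 the highest, and the log2 fold change was 0.61 (SE 0.059, 95% interval 0.49 to 0.73) from means of 45.1 ± 1.89 and 69.0 ± 7.82 CPM. Without IL-33 replicate 2 it was 0.52, under the threshold. Ndrg2, a relative also tied to growth arrest, was low and rose from 4.97 ± 0.520 to 8.22 ± 0.494 CPM (log2 fold change 0.73, SE 0.15, adjusted p = 3.5e-05, edgeR).

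Ankrd37 (chromosome 8, 45996902-46005707, minus strand) encodes a small ankyrin repeat protein and had the fewest reads of the 10, 1054 counts over the 6 libraries. Control libraries read 8.01, 5.76 and 7.03 CPM and IL-33 libraries 9.30, 10.3 and 8.91 CPM. The gap between the highest control and the lowest IL-33 library was only 0.901 CPM, and the log2 fold change of 0.45 from means of 6.93 ± 1.13 and 9.49 ± 0.691 CPM had the largest SE of the 10 genes, 0.13 (95% interval 0.18 to 0.72). It ran from 0.33 without control replicate 2 to 0.57 without control replicate 1. Exons of a pair of genes on the opposite strand overlap those of Ankrd37, Lrp2bp over 349 and Ufsp2 over 57 of its 1539 exon bases. Lrp2bp rose from 0.680 to 2.36 CPM (log2 fold change 1.79, SE 0.32, adjusted p = 3.7e-06, edgeR) and Ufsp2 from 26.5 to 31.7 CPM (log2 fold change 0.26, SE 0.073, adjusted p = 0.003); both were named after their values were seen. As strand use in the counting is not given, the value of Ankrd37 is uncertain.

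**Figure D3:**
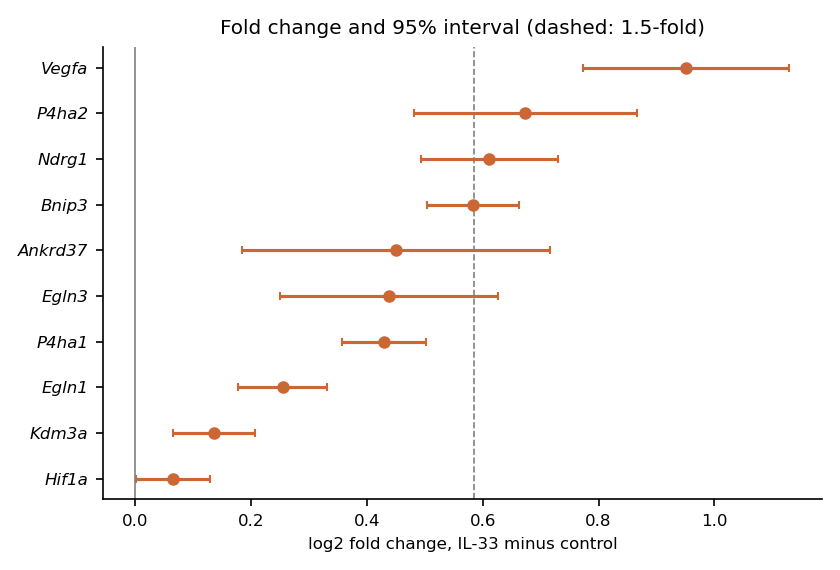
Log2 fold change (IL-33 minus control) of each gene with its 95% interval from the edgeR fit, ordered by size, with a solid line at 0 and a dashed line at the threshold of a 1.5-fold difference. Vegfa stands highest at 0.95 and Hif1a lowest at 0.06, with Bnip3 at 0.58 on the dashed line.

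Among the 10 genes the differences were unequal in size. Of 45 pairs, 25 had 95% intervals that did not overlap. The intervals of Hif1a and Kdm3a overlapped each other, and that of Hif1a lay under those of the remaining 8 genes. Ankrd37, with its wide interval, could be set apart only from Hif1a and Vegfa.

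Levels of different genes were compared in CPM per kilobase of exon. In control cells Egln3 was the highest at 79.3, followed by Hif1a at 43.6, Bnip3 at 40.5, P4ha1 at 39.0, Egln1 at 33.4, Kdm3a at 19.9, Vegfa at 16.4, Ndrg1 at 6.83, Ankrd37 at 4.50 and P4ha2 at 2.10 CPM per kilobase. Of the neighbours in this order only Bnip3 and P4ha1 overlapped in their libraries. With IL-33 the order was Egln3 at 107, Bnip3 at 60.6, P4ha1 at 52.6, Hif1a at 45.6, Egln1 at 39.9, Vegfa at 31.8, Kdm3a at 21.8, Ndrg1 at 10.5, Ankrd37 at 6.16 and P4ha2 at 3.35 CPM per kilobase, and no neighbours overlapped. Hif1a thus stood next to Egln3 without IL-33 and behind Bnip3 and P4ha1 with it, and Vegfa passed Kdm3a.

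Within a group the comparison that chose the genes plays no part. In both groups the 10 genes tended to be high or low in the same libraries. With IL-33, replicate 1 lay below the group mean and replicate 2 above it for all 10 genes, while replicate 3 was split. No share over other genes was taken for these positions about the mean. Control replicate 2 was the lowest control library for 8 of the 10 genes, where this held for 31.9% of 8839 genes with a mean of at least 10 CPM. Control replicate 3 was the highest for 7 of 10, against 30.6%. With IL-33, replicate 1 was the lowest for 6 genes and replicate 3 for 4, against 31.5% and 34.2% of the 8839 genes. The highest was replicate 2 for 5 genes and replicate 3 for 5, against 33.3% and 33.7%. The mean log2 CPM of the 10 genes was 6.24, 6.11 and 6.25 in the controls and 6.60, 6.71 and 6.66 with IL-33. The median within-group SD on the log2 scale was 0.0855, from 0.022 for Kdm3a to 0.18 for Ankrd37, beside 0.0641 for the 8839 genes.

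Over the 6 libraries, 38 of the 45 pairs of genes had deviations from their group means that correlated above 0, with a median r of 0.49 and a range from -0.57 to 0.99. These points share their libraries and their depth and only 6 went into each r, so this is a description. No share over pairs of other genes was taken. Of 8830 other genes, those whose deviations followed the mean deviation of the 10 most closely were Pank4 (r = 0.998), Tgfb3 (r = 0.997), Maf1 (r = 0.994), Cnot6l (r = 0.990) and Rabl3 (r = 0.990). With so many genes searched over 6 libraries, values near 1 carry little weight. Between the groups these 5 differed from one another, with log2 fold changes from -0.07 for Pank4 to 1.04 for Tgfb3.

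**Figure D4:**
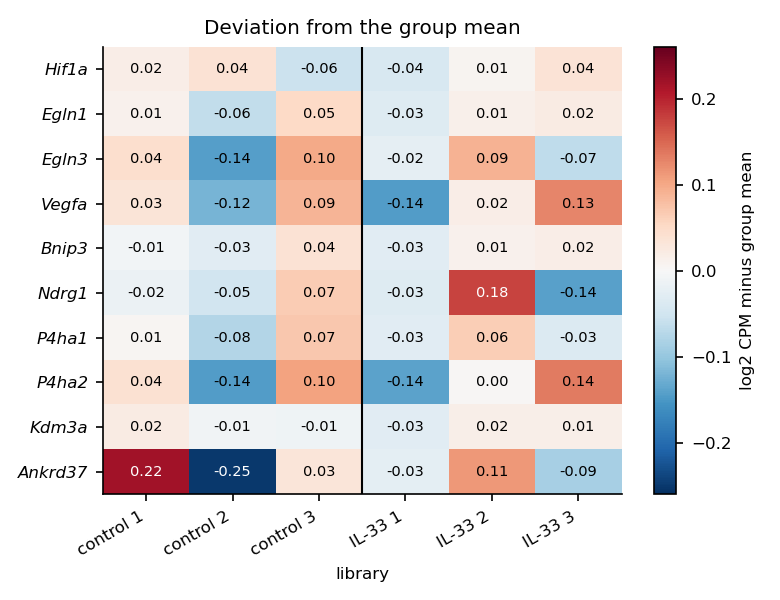
Deviation of each gene's log2 CPM from the mean of its own group in each of the 6 libraries, in red above and in blue below the mean, with the value in each cell. Control replicate 2 is below the mean in all genes but Hif1a. IL-33 replicate 1 is below and IL-33 replicate 2 above the mean in every gene, and Ankrd37 has the widest spread.

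Of the components of the HIF pathway itself, all 24 listed were tested, none was called higher past both thresholds and 1 was called lower, where 4.87% of all genes tested were called in either direction and 2.39% lower; the median log2 fold change was 0.04. The call was Cited4, a coactivator-binding protein with 1.43 ± 0.281 CPM in control and 0.665 ± 0.0123 CPM with IL-33 (log2 fold change -1.10, SE 0.37, adjusted p = 0.016, edgeR), and it was lost with DESeq2 (adjusted p = 0.057), without control replicate 2 (0.050) and without control replicate 3 (0.091). By the adjusted p alone 5 rose and 2 fell, against 13.6% and 13.9% of all genes tested, or 27.5% together. Epas1, which encodes HIF-2α, rose from 514 ± 2.17 to 626 ± 9.68 CPM (log2 fold change 0.28, SE 0.027, adjusted p = 3.2e-16), and at 92.0 and 112 CPM per kilobase stood above Hif1a in both groups. Arnt, the partner of both alpha subunits, rose by 0.19 on the log2 scale (SE 0.050, adjusted p = 0.0022), and its paralogue Arnt2 fell by 0.32 (SE 0.089, adjusted p = 0.0031). Os9, a lectin reported to bind HIF-1α and the hydroxylases, rose by 0.24 (adjusted p = 1.9e-12), the chaperone Hsp90ab1 by 0.10 (adjusted p = 1.8e-04) and Rack1, named after its values were seen, by 0.08 (adjusted p = 0.0046).

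The remaining regulators of HIF did not pass the test. Hif1an, the asparagine hydroxylase FIH, had a log2 fold change of 0.03 (95% interval -0.05 to 0.12, adjusted p = 0.64, edgeR). Vhl, the ubiquitin ligase subunit that recognises hydroxylated HIF, had 0.06 (-0.06 to 0.19, adjusted p = 0.51), and Hif3a, another alpha subunit, had -0.11 (-0.52 to 0.30, adjusted p = 0.75) at 3.38 CPM in control.

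Among other HIF targets outside glycolysis, 54 of 68 listed genes were tested, 5 were called higher and none lower past both thresholds, where 2.47% and 2.39% of all genes tested were, and the median log2 fold change was 0.17. The 5 were Ak4, a mitochondrial adenylate kinase (log2 fold change 0.82, SE 0.073, adjusted p = 2.6e-17, edgeR), Ppp1r3b, which directs a phosphatase to glycogen (0.82, SE 0.041, adjusted p = 1.1e-33), Mxi1, an antagonist of MYC (0.81, SE 0.059, adjusted p = 3.0e-22), Gbe1, the glycogen branching enzyme (0.70, SE 0.065, adjusted p = 3.1e-11), and the zinc finger gene Zfp395 (0.68, SE 0.068, adjusted p = 2.7e-12). Ppp1r3b was the most abundant of them and rose from 82.0 ± 3.02 to 145 ± 6.10 CPM. By the adjusted p alone 26 rose and 3 fell, beside 13.6% and 13.9% of all genes tested. Those that fell were the transcription factors Klf10 (-0.45), Rora (-0.37) and Ets1 (-0.15), named after their values were seen. In total 39 of the 54 had a log2 fold change above 0. The upward direction was not shared by every HIF target.

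All 21 glycolytic HIF targets were tested, 4 were called higher and none lower (2.47% and 2.39% of all genes tested), and by the adjusted p alone 18 rose and none fell (13.6% and 13.9%). The median of 0.36 may be set beside the 0.44 of the 10 genes. The 4 were Eno2, a neuronal enolase (log2 fold change 1.52, SE 0.23, adjusted p = 3.9e-08, edgeR), Aldoc (0.88, SE 0.095, adjusted p = 0.0017), Hk2 (0.72, SE 0.096, adjusted p = 0.0014) and the glucose transporter Slc2a1 (0.60, SE 0.037, adjusted p = 1.4e-25). Gpi1 (0.38) and Tpi1 (0.36) had some of the smallest adjusted p of this list, at 1.7e-25 and 2.5e-21. Of the relatives of the 10 genes, 22 of 27 were tested, Ndrg2 was called higher and Nrp1 lower, beside 4.87% of all genes tested in either direction, and 12 rose and 2 fell by the adjusted p alone, beside 13.6% and 13.9%, with a median log2 fold change of 0.13. The lists share genes, among them Bnip3l, Kdm5b, Epas1 and Egln2, and were written with earlier results known.

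**Figure D5:**
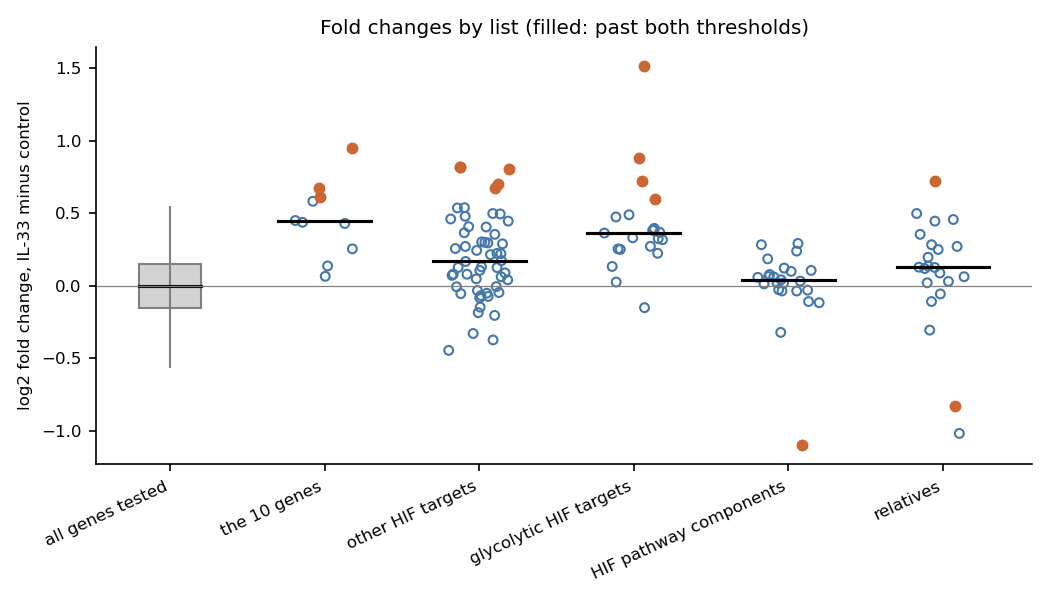
Log2 fold change (IL-33 minus control) of each tested gene by list, with a line at the list's median; filled points were past both thresholds, and the grey box gives the quartiles of all genes tested, its vertical line running from the 5th to the 95th percentile. The medians are 0.44 for the 10 genes, 0.17 for other HIF targets, 0.36 for glycolytic targets, 0.04 for components and 0.13 for relatives.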

How the data were processed

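Gene expression was measured by RNA sequencing in 3 control and 3 IL-33 libraries of mouse DNT cells. For each library the authors deposited unnormalised gene counts, and 1 column of signal, a mean of scaled counts over all libraries, which was not used for any result. The submitters' processing notes name Bowtie 0.12.2 and mm8 without their role, while the table holds only Ensembl identifiers; for the counting program and its use of strand, nothing is stated in these sources. Of 26128 identifiers, 26086 matched GENCODE M21 (GRCm38). The labels name a TruSeq kit and the methods a NEBNext Ultra kit.

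Genes were filtered with filterByExpr (minimum count 10, minimum total 15), scaled by TMM and fitted in edgeR with its robust quasi-likelihood F test, two-sided and without covariates, adjusted by Benjamini-Hochberg over 14671 genes. The thresholds, an adjusted p of 0.05 and a fold change of 1.5, follow the methods of the study. CPM of genes are counts per 1000000 of a library's TMM-scaled total over the 14671 genes kept by the filter. The level of 3 counts was instead set against the full library total. For log2 CPM a prior count of 2 was used. An exact permutation test of 3 against 3 libraries cannot go below 0.1. The tools were edgeR 4.0.16, DESeq2 1.42.0 and limma 3.58.1 under R 4.3.3. The fit was tested on simulated data. The 10 genes and all lists were chosen with earlier results of these data known. Named by rule were the 10 genes, 7 main components of the pathway, genes of a list past both thresholds, the 3 smallest adjusted p of each list, and 5 genes most alike in their deviations; others are marked. Alternatives were DESeq2, limma-voom, other scaling and filters, a replicate block, the adjusted p alone and each library left out. One list of cell type markers is not reported here.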

Additional observations from a re-analysis of the deposited data

How the results depend on the processing

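Over 13 alternative fits all 10 genes kept a log2 fold change above 0. Vegfa (0.89 to 1.02) and P4ha2 (0.60 to 0.74) were at or above a 1.5-fold difference in all 13, Ndrg1 (0.52 to 0.68) in 12 and Bnip3 (0.57 to 0.60) in 2. The median of the 10 ran from 0.38 to 0.51 with 1 library left out, the highest without control replicate 1. With the adjusted p alone the calls were 4036 over all genes tested, 7 among the components, 29 among other HIF targets, 18 among glycolytic targets and 14 among relatives. With DESeq2 the calls over all genes tested were 501 in place of 714, and those among the components 0 in place of 1; with 1 library left out the latter ran from 0 to 1. Cited4 had a log2 fold change of -1.11 with DESeq2, -1.08 without control replicate 2 and -0.96 without control replicate 3, with an adjusted p past 0.05 in each. With 1 library left out Hif3a ran from -0.35 to 0.0028 (without IL-33 replicate 2) and Egln2 from -0.0069 (without control replicate 2) to 0.041, so that both changed sign, and neither was called. Relatives that rose by the adjusted p alone numbered 8 to 12. The cause of these shifts was not tested. Deviations of same-numbered libraries correlated by 0.047, -0.086 and 0.043 over 8839 genes, and those of differently numbered libraries by -0.15 to 0.10. As deviations within groups of 3 libraries, these values cannot tell whether the same number marks a pair. With the replicate number as a block, 666 genes were past both thresholds and the median of the 10 genes was 0.45. Groups of 3 libraries were not examined for outliers. Cited4 (14 to 37 counts per library), Eno2 (28 to 120) and Hif3a (55 to 91) rest on few reads.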
